A study of Mus musculus with 6 samples.

Results

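Immediate early genes are switched on within minutes of a stimulus, without new protein synthesis. Of the 31265 genes in the deposited table, 10 are described here, chosen by name: Jun, Junb and Jund of the JUN family, Fos, Fosb and Fosl2 of the FOS family, Egr1, Atf3, Ier2 and Ier3. Each name matched 1 row. Their levels were measured by poly(A) RNA sequencing in mouse E14Tg2a embryonic stem cells of wild-type genotype that carried a nuclear Grx1-roGFP2 sensor, which is a fluorescent protein whose excitation ratio follows the glutathione redox state. The cells had been differentiated for 5 days as embryoid bodies grown from hanging drops, in medium with serum and beta-mercaptoethanol but without LIF and 2i. The bodies were dissociated with Accutase, cells taking up propidium iodide were gated out, and the live cells were sorted by their sensor ratio. In each of 3 populations (A, B and C) the 10% most oxidized cells gave 1 library and the 10% most reduced cells another, so that 3 oxidized libraries were set against 3 reduced ones. The labels do not say how the populations differ, and p-values measure the spread between them. All 6 libraries thus share the enzyme treatment, the gate and the sort, which can themselves induce these genes. Undissociated or unsorted cells were not analysed here, and the part that dissociation and sorting play in the levels was not tested.

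JUN and FOS proteins join through leucine zippers into the dimeric factor AP-1, which binds short DNA sites related to TGACTCA. JUN proteins can pair with each other or with FOS proteins, whereas FOS proteins need a JUN partner. Serum, growth factors and stress reach these genes through the ERK, JNK and p38 kinases, which act on serum response factor with its ternary complex partners and on factors bound at cyclic AMP response elements, related to TGACGTCA. In embryonic stem cells the same ERK route carries the FGF signal that moves cells out of the naive state.

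The promoter windows of Jun and Fos are shown because Jun had the largest difference between the groups and Fos one of the smallest. Both are RefSeq sequences on GRCm38.p6, 250 bases long, ending at the base before the RefSeq start, which for both genes is also the start of a GENCODE vM21 transcript. Jun's window lies at chr4:95052223-95052472 on the minus strand and that of Fos at chr12:85473640-85473889 on the plus strand. Capitals mark matches, on either strand, to TGACATCA, TGACTCA, TGACGTCA or TGACG.
Jun: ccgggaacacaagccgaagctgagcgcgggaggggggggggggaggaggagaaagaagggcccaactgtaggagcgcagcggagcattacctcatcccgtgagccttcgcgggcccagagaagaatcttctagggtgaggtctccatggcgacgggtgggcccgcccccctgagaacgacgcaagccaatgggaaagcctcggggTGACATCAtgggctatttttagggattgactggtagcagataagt
Fos: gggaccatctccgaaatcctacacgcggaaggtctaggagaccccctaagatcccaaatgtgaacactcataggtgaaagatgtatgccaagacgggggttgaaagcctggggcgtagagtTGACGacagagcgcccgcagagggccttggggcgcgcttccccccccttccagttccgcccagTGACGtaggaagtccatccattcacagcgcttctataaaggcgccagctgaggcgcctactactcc
Jun held TGACATCA, a variant of the AP-1 site, at bases -45 to -38, counted back from the start. Fos held TGACG, the core that also begins the longer TGACGTCA, at bases -129 to -125 and -66 to -62. Among 32851 RefSeq windows of the same length, TGACATCA was found in 2.93%, TGACTCA in 4.46%, TGACGTCA in 1.55% and TGACG in 17.8%. RefSeq windows were at hand for 8 of the 10 genes, and beyond Jun and Fos the search matched TGACG in Fosb, Junb and Atf3 and nothing in Fosl2, Jund and Ier3. For none of these other genes is the RefSeq start also the start of a GENCODE vM21 transcript. Jund's window ended at base 70697738, upstream of the gene's start at 70698949, and those of Fosl2 and Atf3 lay inside the gene. Matches in Jund, Fosl2 and Atf3, or the lack of them, thus do not describe the promoters of the GENCODE transcripts. The windows of Fosb, Junb and Ier3 ended close to the gene starts, at bases 19310046, 84978749 and 35821712 against 19310051, 84978718 and 35821684.

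The libraries held an estimated 1.18e+07 to 1.79e+07 fragments, with population C the shallowest. Oxidized A and B stood apart from the other 4 libraries. Their 13 mitochondrial mRNAs summed to 7348 and 5160 FPKM, against 2994 FPKM in oxidized C and 2324 to 3917 FPKM in the reduced libraries. The most abundant row of the table, 1 of several named CT010467, was at 1410 and 1736 FPKM in them, against 43825 FPKM in oxidized C and 34116 to 36593 FPKM in the reduced libraries.

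The genes covered a wide range of levels, given here as FPKM, fragments per kilobase of transcript after scaling for library size. Ier2 was the most abundant in both groups, at 203 ± 28.2 FPKM for the oxidized sort and 154 ± 26.7 FPKM for the reduced sort (SD, n = 3 each, as for every mean below). In oxidized cells Jund, Jun, Junb, Fos, Ier3, Egr1, Atf3, Fosl2 and Fosb followed in that order. In reduced cells the order was the same except that Junb stood above Jun. Neighbours whose libraries overlapped were Jund and Jun in oxidized cells, Junb and Jun and also Fosl2 and Fosb in reduced cells, and Fos, Ier3 and Egr1 in both. Fosb and Fosl2 stayed under a mean of 1 FPKM and were not tested, which left 8 genes of the 10.

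**Figure D1:**
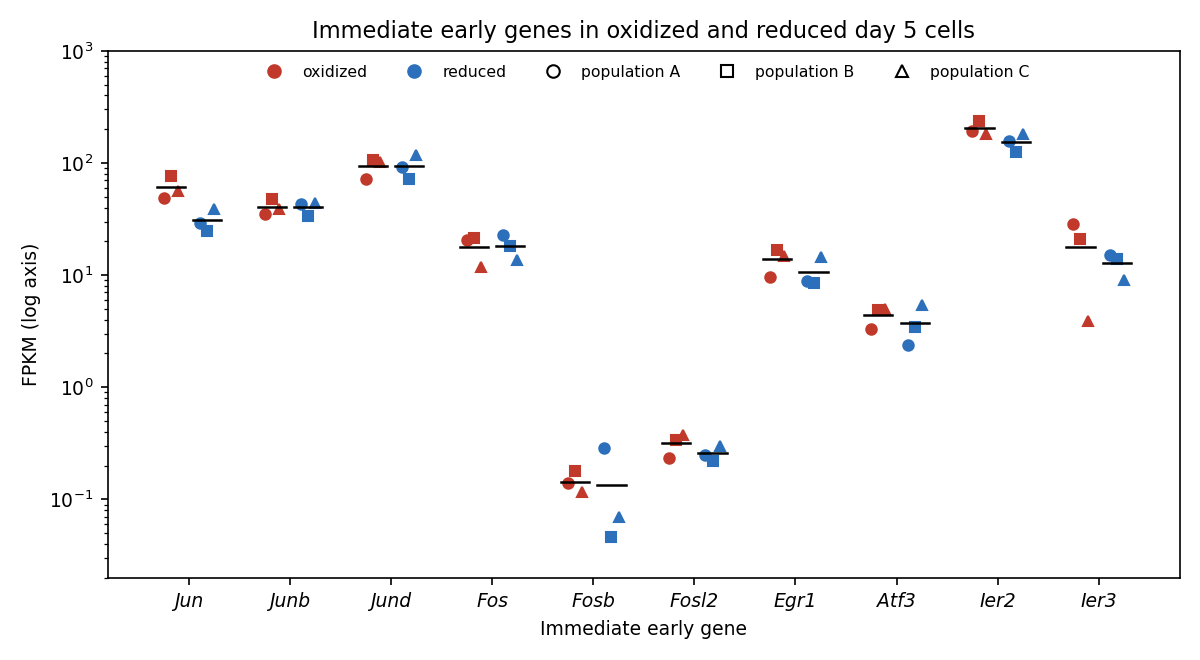
FPKM of each immediate early gene on a log axis, with 1 point per library (circles, squares and triangles for populations A, B and C) and a line at the mean of 3 libraries. The oxidized points of Jun, 48.4 to 77.2 FPKM, lie above all reduced ones, 24.8 to 39.0 FPKM, while most other genes overlap.

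Across the 8 genes tested, 0 passed limma's test at an adjusted p under 0.05, where 0.796% of all 12191 genes did (0.517% higher and 0.279% lower in oxidized cells). At an unadjusted p under 0.05 there was 1 of the 8, Jun, against 19.4% of all genes. The median difference of the 8, taken as oxidized minus reduced in log2(FPKM + 1), was 0.18, beside 0.077 for all genes tested. Of the 8, 7 had positive differences and 1, Fos, a negative one. Jun and Ier2 were the genes whose groups did not overlap, both higher in oxidized cells, which held for 16.2% of all genes tested, while 8.81% were lower without overlap and 25% did not overlap in either direction. Without oxidized C, limma called Jun and Ier3, in a fit that called 9.87% of all genes. With the populations as a block it called 0 of the 8 and 0.0328% of all genes. Without oxidized A and B together, 1 oxidized library was left against 3 reduced ones. The spread then comes from the reduced libraries alone, and oxidized C is assumed to vary like them. That fit called 0 of the 8 and 0.0911% of all genes, and with 1 library in an arm its p-values say little.

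**Figure D2:**
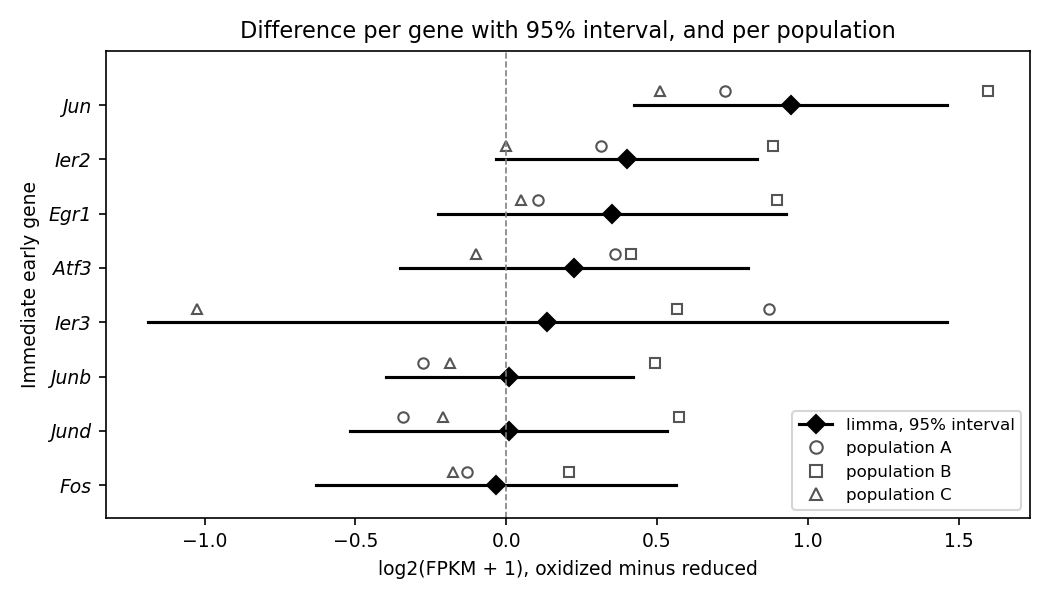
Difference in log2(FPKM + 1), oxidized minus reduced, of the 8 genes tested: diamonds and bars give limma's estimate with its 95% interval, open symbols the difference within each population. Jun's bar runs from 0.43 to 1.46, the other 7 bars cross 0, and the squares of population B lie to the right of 0 for every gene.

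Jun, the JUN protein that JNK phosphorylates most efficiently (chr4:95049034-95052222, minus strand), held 48.4, 77.2 and 56.0 FPKM in the oxidized libraries A to C, against 28.9, 24.8 and 39.0 FPKM in the reduced ones. Every oxidized library was above every reduced one. The mean was 60.5 ± 14.9 FPKM for the oxidized sort and 30.9 ± 7.32 FPKM for the reduced sort, a log2 difference of 0.94 (SE 0.23, 95% interval 0.43 to 1.46), or 1.92-fold on that scale. It did not pass limma's test over all genes (adjusted p = 0.102). Leaving out 1 library moved that adjusted p between 0.0397, without oxidized C, and 0.309, without reduced B. Differences at least as large in size were found in 3.4% of all genes tested. Within populations Jun was higher in oxidized cells by 0.73 in A, 1.60 in B and 0.51 in C, on the log2 scale. In the authors' deposited table the ratio of Jun was 1.96 with a q-value of 0.0176. That made it 1 of 10 immediate early genes with a q-value under 0.05 in the authors' deposited table, where 2.76% of all genes were. It was not among the 1.94% of genes marked significant in the authors' deposited table, all of which had an absolute log2 ratio of at least 1.

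Markers of cell types were read in the same fit. The 11 markers of extraembryonic endoderm summed to 161 to 209 FPKM for the oxidized sort and 70.2 to 96.8 FPKM for the reduced sort. Of these, 10 of 10 tested members were positive, with a median log2 difference of 0.96 beside 0.077 for all genes tested. Sparc and Col4a2, matrix genes, were called, where 0.796% of all genes were. The visceral endoderm marker Afp stayed under 1 FPKM in all libraries. The 8 fibroblast markers summed to 27.0 to 55.0 FPKM against 12.5 to 22.8 FPKM, with 5 of 5 tested members positive and a median of 0.79. Col3a1 was called, while Thy1 stayed under 1 FPKM. Pluripotency markers were present in every library, with Pou5f1 at 73.0 to 151 FPKM for the oxidized sort and 168 to 199 FPKM for the reduced sort. The 8 pluripotency genes had a median log2 difference of -0.46, and 1 of them, Tdgf1, was called lower. Of 9 tested early differentiation genes 1 was called, T, a mesoderm factor, which was lower. The list was mixed, with 4 positive and 5 negative differences and a median of -0.20. Its groups lay apart in the higher direction for 3 genes and in the lower direction for 3. Among all genes tested 16.2% lay apart in the higher direction and 8.81% in the lower. Its 10 genes summed to 174 to 250 FPKM for the oxidized sort and 154 to 180 FPKM for the reduced sort. These 5 marker calls were lost with the populations as a block (adjusted p = 0.0902 for Sparc, 0.0665 for Col4a2, 0.0613 for Col3a1, 0.0564 for Tdgf1 and 0.0601 for T). Of 6 blood and 4 endothelial markers tested 0 were called. At an unadjusted p under 0.05 there were 0 and 3, where 19.4% of all genes tested were. Hbb-bh1 was at 0.71, Cd68 at -0.50, Tie1 at 0.81 and Pecam1 at -0.51. Tie1 passed limma's test without oxidized C (adjusted p = 0.0345). In bulk libraries more cells of a type and more RNA per cell cannot be told apart, and the part of these cell types in the Jun difference was not tested. With oxidized A and B left out, so that oxidized C alone was set against the 3 reduced libraries, Jun's log2 difference was 0.86 (adjusted p = 0.266, with a spread from the reduced libraries alone). The part of the raised mitochondrial mRNAs of oxidized A and B in the Jun difference was not tested.

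Junb, which often restrains Jun's activity (chr8:84974484-84978718), held 35.4, 47.6 and 38.6 FPKM in the oxidized libraries A to C, against 43.1, 33.6 and 44.1 FPKM in the reduced ones. The groups overlapped. Its log2 difference was 0.0098 (SE 0.18, 95% interval -0.40 to 0.42, adjusted p = 0.982). Jund, the JUN member kept at a steady level in many cell types (chr8:70698949-70700616), held 72.1, 107 and 102 FPKM against 91.7, 71.6 and 118 FPKM, again with overlap. Its log2 difference was 0.0077 (SE 0.23, 95% interval -0.52 to 0.53, adjusted p = 0.989). Both signs turned under median-ratio scaling, to -0.082 for Junb and -0.085 for Jund. Within populations Junb and Jund were lower in oxidized cells in A and C and higher in B. Junb's gene span runs into the antisense gene Prdx2. Prdx2 was at 204 to 269 FPKM for the oxidized sort and 162 to 222 FPKM for the reduced sort. Yet 0% of the 75-base stretches of Junb's listed transcript lie in other genes. For Jund, 45.9% of them lie in the antisense gene Gm11175, listed at 0 to 0.158 FPKM. No source used here says if fragments were counted by strand, so Jund's value is uncertain. The part of Prdx2 in Junb's value was not tested. Jun shares 5.07% of its stretches with the antisense gene Junos, which held at most 0.223 FPKM.

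The make-up of the JUN family was read as shares. Jun made up 31.1%, 33.3% and 28.5% of the summed JUN family FPKM in the oxidized libraries A to C, against 17.7%, 19.1% and 19.4% in reduced A, B and C. The share averaged 30.9 ± 2.41% in oxidized and 18.7 ± 0.941% in reduced cells, and it does not depend on the factor a library was scaled by. No oxidized share overlapped a reduced one. Jund gave the largest share in every library, 46.2% to 51.9% in oxidized and 55.1% to 58.7% in reduced cells. Junb's share was 19.6% to 22.7% in oxidized and 21.9% to 26.3% in reduced cells, which overlapped. Summed JUN family FPKM was 156 to 232 in oxidized and 130 to 201 in reduced cells, with overlap. These shares carry no test, as they were formed from the genes chosen and 3 libraries against 3 cannot go below p = 0.1 in an exact two-sided permutation test.

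**Figure D3:**
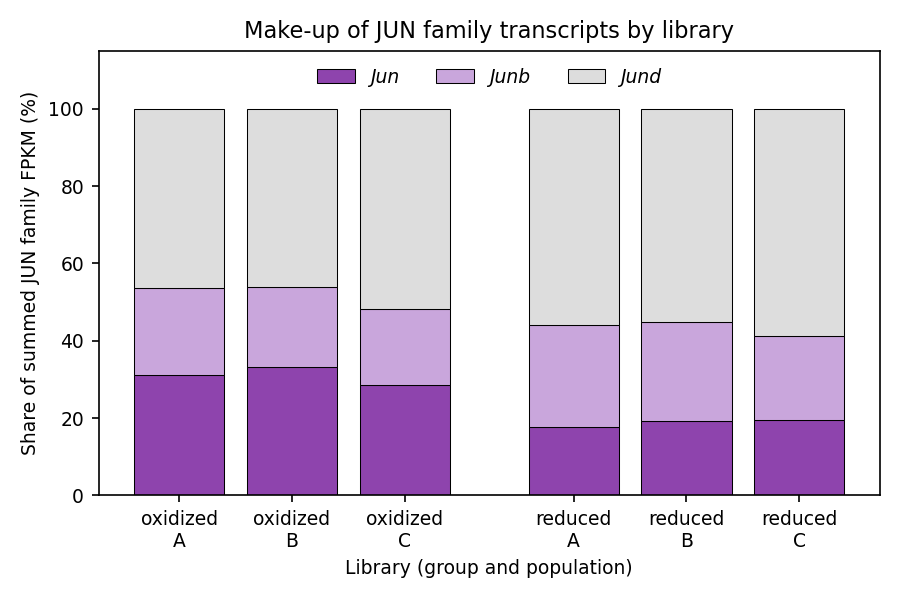
Stacked shares of Jun, Junb and Jund in the summed JUN family FPKM of each library, in percent, with oxidized libraries at the left and reduced ones at the right. The Jun segment takes 28.5% to 33.3% in oxidized and 17.7% to 19.4% in reduced libraries.

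Fos, the classic serum-induced partner of Jun (chr12:85473890-85477273), held 20.7, 21.3 and 11.9 FPKM in the oxidized libraries A to C, against 22.8, 18.3 and 13.6 FPKM in the reduced ones. The groups overlapped throughout, and population C was lowest in both. Its log2 difference was -0.033 (SE 0.26, 95% interval -0.63 to 0.56, adjusted p = 0.955), and its sign turned to 0.22 without oxidized C and to 0.14 without reduced A. Fosb, a relative with a truncated form known from neurons, held 0.140, 0.178 and 0.115 FPKM in the oxidized libraries A to C, against 0.287, 0.0462 and 0.0692 FPKM in the reduced ones. At the estimated depth this corresponds to an estimated 4.91 to 32.1 fragments per library, too few to read a difference. Fosl2 (Fra-2), which in other cells outlasts Fos after a stimulus, held 0.235, 0.342 and 0.373 FPKM against 0.251, 0.222 and 0.298 FPKM, or 36.0 to 50.4 fragments. In the fit without a filter neither was called, with log2 differences of 0.019 for Fosb (adjusted p = 0.928) and 0.066 for Fosl2 (adjusted p = 0.698). Fos therefore made up nearly all FOS family FPKM. The FOS family gave 11.9%, 8.59% and 5.92% of all JUN and FOS FPKM in the oxidized libraries A to C, against 12.5%, 12.5% and 6.47% in reduced A, B and C. Population C was the lowest in both groups for this share too. Jun stood at 2.34, 3.63 and 4.71 times the FPKM of Fos in oxidized A, B and C, against 1.27, 1.36 and 2.88 times in reduced A, B and C. In each population the ratio was higher in oxidized cells, though the groups overlapped.

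Egr1, a zinc finger factor that ERK signalling induces (chr18:34859823-34864984), held 9.70, 16.7 and 14.9 FPKM in the oxidized libraries A to C, against 8.94, 8.51 and 14.4 FPKM in the reduced ones. It was higher in oxidized cells in each population, by 0.11 in A, 0.90 in B and 0.050 in C on the log2 scale, a pattern of 3 positive populations shared with Jun and Ier2 and seen in 26.9% of all genes tested, where 43.3% kept 1 sign in all populations. The groups overlapped, and the log2 difference of 0.35 (SE 0.25, 95% interval -0.22 to 0.93) had an adjusted p of 0.464 by limma. Atf3, a stress-induced factor that forms dimers with JUN proteins and is a target of ATF4 (chr1:191170296-191218039), held 3.33, 4.89 and 4.97 FPKM against 2.38, 3.42 and 5.40 FPKM. The highest library was reduced C, and the log2 difference was 0.22 (SE 0.25, 95% interval -0.35 to 0.80, adjusted p = 0.652). It was 0.0060 without reduced A and 0.47 without reduced C.

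Ier2, a short nuclear protein induced with Fos (chr8:84661331-84662852), held 194, 234 and 180 FPKM in the oxidized libraries A to C, against 156, 126 and 180 FPKM in the reduced ones. Its groups touched: oxidized C, at 179.73 FPKM, lay just above reduced C, at 179.69 FPKM. The log2 difference was 0.40 (SE 0.19, 95% interval -0.032 to 0.83) and did not pass limma's test (adjusted p = 0.289). Ier3, a stress-induced regulator of cell death and ERK signalling (chr17:35821684-35822923), was the most variable of the 8. It held 28.6, 21.1 and 3.89 FPKM in the oxidized libraries A to C, against 15.2, 13.9 and 8.96 FPKM in the reduced ones. Oxidized A and B were the highest of the 6 libraries and oxidized C the lowest. The log2 difference over all libraries was 0.14 (SE 0.58, 95% interval -1.19 to 1.46, adjusted p = 0.915). It was 0.93 without oxidized C (adjusted p = 0.0424). With oxidized C as the only oxidized library it was -1.45, so its sign depended on which oxidized libraries were read. Oxidized A and B are the libraries with the raised mitochondrial mRNAs given above, and the part of that shift in Ier3 was not tested.

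The populations differed in their pattern. In population B all 8 tested genes were higher in oxidized cells, in A 5 and in C 3, beside median differences over all genes of 0.14 in B, 0.085 in A and 0.000254 in C. Oxidized B was the highest oxidized library for 6 of the 8 (Jun, Junb, Jund, Fos, Egr1 and Ier2) and the lowest for none. Among reduced libraries C was highest for 6 (Jun, Junb, Jund, Egr1, Ier2 and Atf3), and B was lowest for 5 (Jun, Junb, Jund, Egr1 and Ier2). Fos and Ier3 ran the other way, with population C lowest in both groups. Embryonic blood genes marked population C in the same libraries: Hba-x, an embryonic globin, was at 314 FPKM in oxidized C and 290 FPKM in reduced C, against 9.48 to 28.8 FPKM in the other 4 libraries. The leukocyte marker Ptprc was listed at 0 in all 6. The part of blood cells in the Fos and Ier3 levels was not tested.

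**Figure D4:**
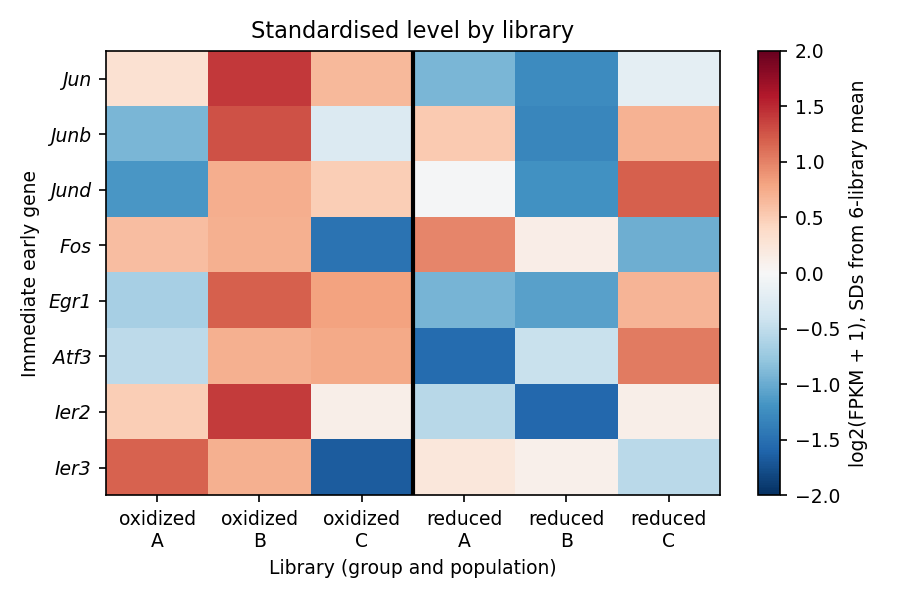
Level of each tested gene in the 6 libraries, as log2(FPKM + 1) in SDs from that gene's mean over the libraries (red above, blue below), oxidized at the left. Oxidized B is above the mean for all 8 genes, and Fos and Ier3 are below it in both libraries of population C.

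By the root mean square distance between standardised profiles over the 6 libraries, which share 3 populations, the genes nearest to Fos among 6547 compared were Srprb, Bcar3, H2-D1, Usp18 and Bpnt1, at distances of 0.15 to 0.23. Ier3 was the nearest immediate early gene to Fos, at 0.43, and the other 6 lay at 1.24 to 1.69. Nearest to the mean profile of the 8 genes were Dcaf15, Pqlc2, Zc3h13, Fbxl6 and Hnrnpl, at 0.15 to 0.19. Ier2 and Jun were the members closest to that mean, at 0.33 and 0.49, and Fos was the farthest, at 1.26.

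The wider network of AP-1 and its signals was read in the same fit. For comparison with the counts here and in the lists below, 0.796% of all genes tested were called. An unadjusted p under 0.05 by limma was found for 19.4% of them. Among FOS relatives outside the 10 genes, Fosl1 was at most 0.0931 FPKM. In the Egr family, Egr2, Egr3 and Egr4 stayed under 1 FPKM, 0 of 2 tested genes were called (0 at an unadjusted p under 0.05), and the corepressor genes Nab2 and Nab1 differed by 0.40 (adjusted p = 0.401) and 0.042 (adjusted p = 0.907).

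Among 18 other immediate early transcription factors, 15 were tested and 0 called, with a median of 0.043. At an unadjusted p under 0.05 there were 3. Myc, a driver of growth, held 18.7, 15.7 and 7.59 FPKM in the oxidized libraries A to C, against 4.44, 2.95 and 5.22 FPKM in the reduced ones. The groups did not overlap, and its log2 difference was 1.47 (adjusted p = 0.0780). Ier5, a regulator of the heat shock factor HSF1, differed by 1.05 (adjusted p = 0.112), and Klf2 by -0.33 (adjusted p = 0.546). Without oxidized C, both Myc and Ier5 passed (adjusted p = 0.00236 and 0.00702). Of 27 immediate early effectors all were tested and 0 called (6 at an unadjusted p under 0.05), with a median of 0.19. Sgk1, a kinase induced by serum and glucocorticoids, held 16.7, 18.7 and 15.9 FPKM in the oxidized libraries A to C, against 32.0, 41.1 and 28.2 FPKM in the reduced ones. Its groups did not overlap, and its log2 difference was -0.93 (adjusted p = 0.0599). Phlda1, an ERK-induced regulator of receptor signalling, differed by 1.24 (adjusted p = 0.112) and the survival factor Mcl1 by 0.20 (adjusted p = 0.756). In the authors' deposited table Myc (q-value 0.000167), Ier5 (0.00917) and Phlda1 (0.0338) were marked significant, as were other members of these lists. That mark was given to 1.94% of all genes. Sgk1 had a q-value of 5.09e-05 there without the mark, and Klf2 (0.688) and Mcl1 (0.887) were not marked either.

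Upstream, of 28 genes of the ERK, JNK and p38 cascades 25 were tested and 0 called (5 at an unadjusted p under 0.05), with a median of 0.14. The p38 genes Mapk13 and Map2k6 differed by -0.61 (adjusted p = 0.120) and 0.56 (adjusted p = 0.127), and Mapk3, which encodes ERK1, by 0.25 (adjusted p = 0.407). Serum response factor and its partners had 0 of 9 called (1 at an unadjusted p under 0.05), with a median of 0.032. Elk3 differed by 0.75 (adjusted p = 0.132), Elk1 by 0.48 (adjusted p = 0.304) and Srf by 0.043 (adjusted p = 0.907). Dual-specificity phosphatases, which switch the kinases off, had 0 of 10 tested called (3 at an unadjusted p under 0.05), with a median of 0.42. Dusp7 differed by 0.63 (adjusted p = 0.140), Dusp5 by 0.66 (adjusted p = 0.145) and Dusp9 by -0.34 (adjusted p = 0.315). Of 15 textbook AP-1 targets 12 were in the table, 9 were tested and 0 called (3 at an unadjusted p under 0.05), with a median of -0.072. Among them Vegfa differed by 0.50 (adjusted p = 0.187), Mmp9 by 0.62 (adjusted p = 0.194) and the metallothionein Mt2 by -0.20 (adjusted p = 0.760).

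**Figure D5:**
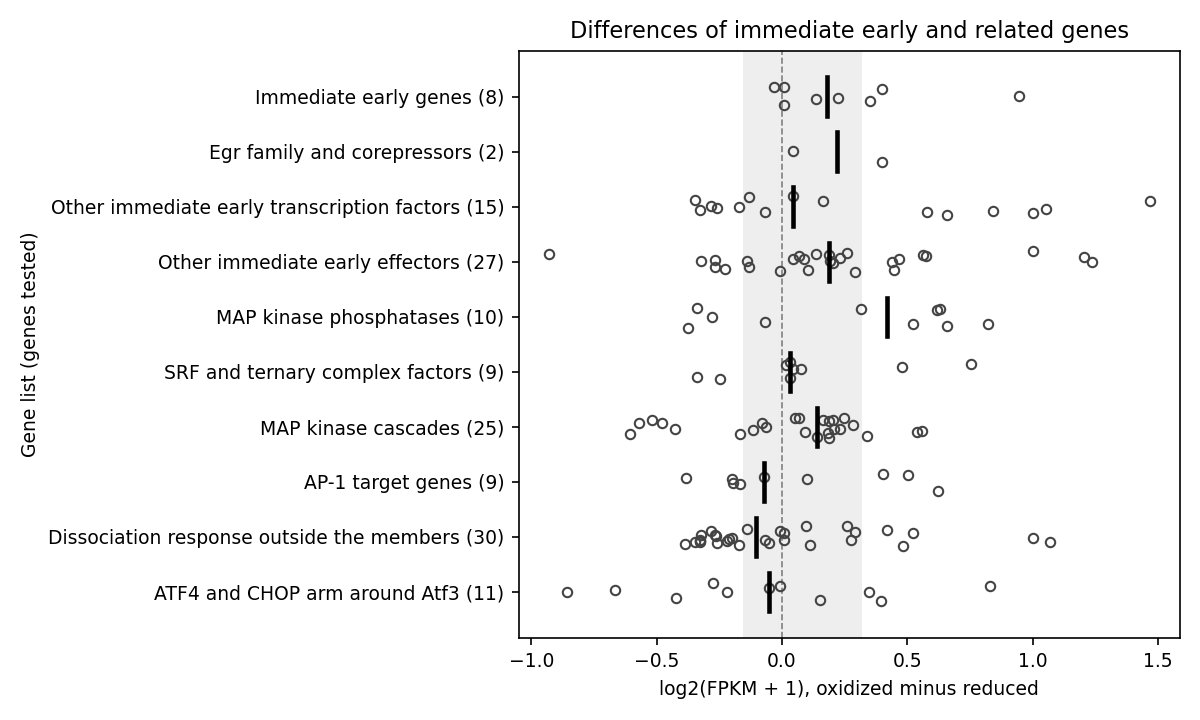
Log2 differences, oxidized minus reduced, of the tested immediate early genes and of 9 related lists, 1 circle per gene, with a bar at each median and grey from -0.15 to 0.32, the middle 50% of all genes tested. None of the genes drawn was called, and the medians run from -0.10 to 0.42.

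Genes known to rise when tissue is dissociated were also compared, outside the 10 genes. All 30 were tested and 0 called (2 at an unadjusted p under 0.05), 12 with positive and 18 with negative differences and a median of -0.10. They summed to 3339 to 3883 FPKM for the oxidized sort and 3709 to 3936 FPKM for the reduced sort, which overlapped. Btg2, an antiproliferative early gene, held 28.6, 31.0 and 14.3 FPKM in the oxidized libraries A to C, against 10.1, 10.5 and 13.3 FPKM in the reduced ones (log2 difference 1.00, adjusted p = 0.124). The mitochondrial chaperone Hspd1 was at 310, 267 and 77.0 FPKM against 77.7, 97.5 and 90.1 FPKM (log2 difference 1.07, adjusted p = 0.247), so that oxidized A and B stood apart here as well. Hsp90ab1, the most abundant of the list, differed by -0.33 (adjusted p = 0.345). Around Atf3, the ATF4 arm of the stress response had 0 of 11 tested members called (3 at an unadjusted p under 0.05), with a median of -0.051. Atf4 itself held 43.8, 47.3 and 30.6 FPKM in the oxidized libraries A to C, against 20.8, 22.7 and 22.6 FPKM in the reduced ones (log2 difference 0.83, adjusted p = 0.0864). Its target Asns, which makes asparagine, held 145, 134 and 120 FPKM against 298, 230 and 204 FPKM (log2 difference -0.86, adjusted p = 0.0780). Neither pair of groups overlapped, and the 2 genes lay on opposite sides.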

How the data were processed

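Per the file headers, the authors deposited FPKM for 31265 genes in 6 libraries. Tools named, without versions, in the submitters' processing notes are HISAT2, StringTie, cutadapt, FastQC and edgeR, with mm10 as build. The deposited ratio, log2 ratio, p-value and q-value columns compare oxidized with reduced libraries, and no source used here names the test behind them. For Fos, Fosb, Fosl2 and Atf3, listed with several transcripts, the values, which the authors deposited with more than 6 decimals, came out at whole multiples of the 6th decimal in 6 of 6 libraries once multiplied by the joined exon length of those transcripts in GENCODE vM21 (GRCm38, the build called mm10). The same held for 75.8% of all 14403 genes with several transcripts. Joined exon length was therefore used for fragment estimates.

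FPKM values are not counts, so limma 3.58.1 in R 4.3.3 was fitted on log2(FPKM + 1) for the 12191 genes averaging at least 1 FPKM (group only, mean-variance trend, Benjamini-Hochberg over all genes, two-sided, called at an adjusted p under 0.05). Adjusted p-values are from that fit or its alternatives, and this scale understates changes of low genes. Low values fell on whole fragments, within 2% of a step, in 16.3% to 18.4% of cases, so reads could not be recovered. The main step, searched only within a preset range that bounds the depth, puts it at about 1.18e+07 to 1.79e+07 fragments. It also gave the fragment numbers quoted, which are estimates.

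Libraries with the same letter come from 1 population, per the series' design text. Across genes, same-letter libraries deviated from their groups with r of -0.056 for A, 0.070 for B and 0.20 for C. Different letters gave r from -0.17 (oxidized B with reduced C) to 0.13 (oxidized A with reduced B). The values for A and B lay inside that range and the value for C above it. The alternatives include population as a block. Column letters were not tied to the numbers in the sample titles. Overlaps and shared 75-base stretches were read from GENCODE vM21, and Python 3.11.15 was used for tables and figures.

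The 10 genes and the lists were chosen with earlier results of these data known, and some lists share genes. Named were all 10 genes, the called members of each list or else the 2 with the smallest p and the most abundant, and the 5 nearest genes by profile averaging 5 FPKM or more. Hba-x, Afp, Thy1, Ptprc, Egr2, Egr3, Egr4, Fosl1, Pou5f1 and CT010467 were added after their values were seen. A list of other AP-1 partners is not reported here.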

Additional observations from a re-analysis of the deposited data

How the results depend on the processing

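Over 14 alternatives (13 for Atf3, which fell under the filter at a mean of 5 FPKM), Jun, Egr1, Ier2 and Atf3 had positive differences, with ranges of 0.20 to 0.57 for Egr1, 0.24 to 0.52 for Ier2 and 0.0060, without reduced A, to 0.47 for Atf3, while 16 of the 111 differences of the 8 genes took the other sign. Changing the filter, dropping the mean-variance trend or adding the block leaves each log2 difference as in the main fit. In those alternatives, counted among the 111, no sign could turn. Jun ranged from 0.76 to 1.12 and passed 1 time, without oxidized C. With 1 library left out, the count of called immediate early genes ran from 0 to 2, and leaving out oxidized A and B together, an alternative chosen after seeing the data that leaves 1 oxidized library and takes the spread from the reduced ones alone, gave 0. With the replicate block, which pairs the populations, 4 of all genes were called in place of 97, and 0 of the 8. Beyond the called markers, the block ended no call of a gene named here. Without a filter 1 gene was called, and without oxidized A and B together 11. With 1 library left out the count ran from 3, without oxidized A or reduced B, to 1204, without oxidized C. Without oxidized C, Jun, Ier3, Myc, Ier5, Sgk1, Phlda1, Elk3, Mmp9, Btg2, Hspd1, Asns, Atf4 and Tie1 passed limma, with adjusted p of 0.00132 to 0.0424. Sparc, Col4a2, Col3a1, Tdgf1 and T lost their calls without a filter and without oxidized A, oxidized B, reduced A or reduced B, and all but T without oxidized A and B together. The cause was not tested.

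Signs turned with median-ratio scaling for Junb (-0.082), Jund (-0.085), Nab1 (-0.037) and Srf (-0.046), and with quantile normalization for Junb (-0.067), Jund (-0.072), Nab1 (-0.057) and Srf (-0.057). Leaving out 1 library moved Fos from -0.22 to 0.22, Junb from -0.11 to 0.10, Jund from -0.17 to 0.19, Ier3 from -0.37 to 0.93, Nab1 from -0.077 to 0.12, Srf from -0.045 to 0.16, Mcl1 from -0.029 to 0.62, Mt2 from -0.41 to 0.21 and Hbb-bh1 from -0.13 to 1.93. Without oxidized A and B, Junb was at -0.048, Ier3 at -1.45, Mcl1 at -0.64 and Hspd1 at -0.19. Both scalings moved the split of called genes, which was 63 higher and 34 lower, to 58 and 50 with median-ratio scaling and to 54 and 51 with quantile normalization, where Sgk1 also passed (adjusted p = 0.0410 and 0.0436). Depth limits Fosb and Fosl2 most, and by the estimated depth population C is the shallowest.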
